A study of Mus musculus with 15 samples.

Results

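In the mouse melanoma line B16-F10, gene expression after siRNA knockdown of Ezh2 was compared with that of both untargeted groups of the experiment pooled. The 3 siEzh2 libraries were set against the mean of 3 libraries of cells given a scrambled siRNA (scr) and 3 libraries of cells given DMSO, the vehicle of the compounds tested in parallel. The genes described are those that passed the test of this pooled difference and whose 3 siEzh2 libraries all lay above, or all below, all 6 control libraries in CPM, the counts scaled to a common library total. There were 1680 such genes among 15152 tested, 800 higher and 880 lower in siEzh2. All groups were of the same unmodified line, and the labels name no siRNA for the DMSO cells. The series also holds 3 libraries each of cells given 2 µM GSK126, an inhibitor of the EZH2 methyltransferase, and 2 µM DZNep, an inhibitor of S-adenosylhomocysteine hydrolase. Those 6 libraries entered the fit for its estimate of spread. The sources used here do not give the siRNA sequence, the time of harvest or whether replicates came from separate cultures, so the spread between replicates that the p-values rest on may be technical.

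EZH2 is the main enzyme of PRC2, the Polycomb complex that places methyl groups on lysine 27 of histone H3, a mark of silenced genes. EZH1 is its less active paralog, EED and SUZ12 are the core partners, and PRC1 complexes bind the mark through their CBX subunits. In melanoma EZH2 is often present at high levels and has been tied to proliferation, invasion and the silencing of differentiation and immune genes. No histone mark was measured here.

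The siEzh2 libraries held 33299524, 39436682 and 43261642 counts, and all 9 libraries compared held between 33299524 and 64545747. The 7 defining melanocyte markers were all tested. Together they took 24070 to 25531 CPM in siEzh2 libraries, 18904 to 19999 CPM in scr libraries and 25278 to 25625 CPM in DMSO libraries. Of 12 blood and endothelial markers, 6 had 0 counts in all 9 libraries and 1 passed the count filter. Of 10 fibroblast markers, 5 passed the filter, and their sum was 194 to 201 CPM in siEzh2, 193 to 196 CPM in scr and 190 to 228 CPM in DMSO libraries. Mitochondrially encoded genes took 7.04 to 8.86% of normalised counts in siEzh2, 6.44 to 10.3% in scr and 8.01 to 9.12% in DMSO libraries.

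The knockdown was seen in the targeted gene. Ezh2 had 37.6, 39.9 and 41.3 CPM in siEzh2 libraries, against 215, 227 and 215 CPM in scr and 204, 209 and 208 CPM in DMSO libraries. All 3 siEzh2 libraries were far below the 6 controls, which lay close together. Ezh2 fell to 18.6% of the control level, 5.38-fold lower, with a log2 fold change of -2.43 ± 0.05 (SE, adjusted p = 4.09e-18). Its exons overlap those of Gm26625 on the opposite strand, and the sources used here do not say whether counting used strand. Its paralog Ezh1 had 40.9, 46.0 and 47.2 CPM in siEzh2 libraries, against 48.0, 42.0 and 42.3 CPM in scr and 41.8, 39.9 and 44.2 CPM in DMSO libraries. The groups overlapped, and the difference of 0.06 ± 0.06 on the log2 scale did not pass the test (adjusted p = 0.587).

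The 2 controls that were pooled were not alike. In a principal component analysis of the 9 libraries, the first component took 41.2% of the variance and placed siEzh2 (-12.9 to -9.74) and DMSO (-9.75 to -7.68) close together, with scr at 18.6 to 20.3. The second component, with 21.5%, placed siEzh2 (9.05 to 12.3) apart from DMSO (-18.5 to -5.67). The scr and DMSO libraries differed in 3920 genes (25.9% of those tested). The siEzh2 libraries differed from scr alone in 3953 genes (26.1%) and from DMSO alone in 2148 genes (14.2%), and these comparisons share the siEzh2 libraries. Library names number scr and siEzh2 in succession and DMSO separately. What the numbers stand for is not stated, so an effect of transfection or of processing in 1 arm cannot be told apart from the difference between the controls.

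**Figure D1:**
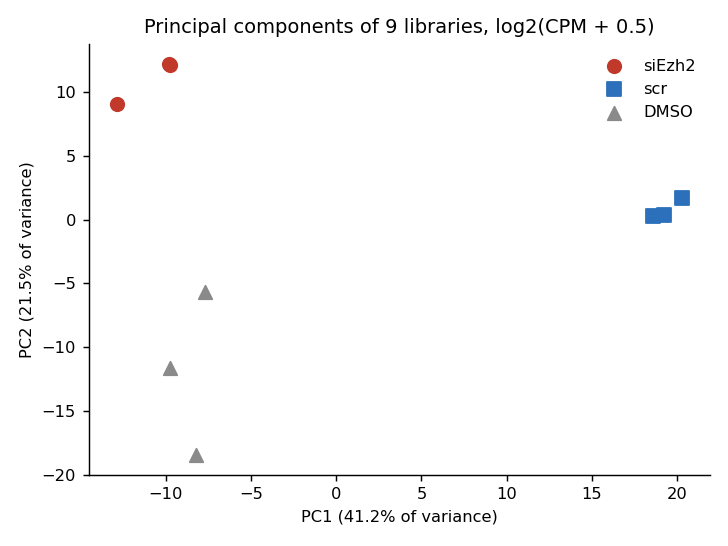
Principal components of the 9 libraries on log2(CPM + 0.5), with 1 point per library and the share of variance on each axis. The scr libraries sit at 18.6 to 20.3 on the first component, apart from siEzh2 and DMSO, which separate on the second.

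Against both controls pooled, 2991 genes were called (19.7% of those tested), 1510 higher (9.97%) and 1481 lower (9.77%). Of these, the 1680 genes whose siEzh2 libraries lay beyond all 6 controls made up 11.1% of the genes tested and 56.2% of those called. The 800 higher genes were 5.28% and the 880 lower genes 5.81% of those tested. Without the test, 2080 tested genes (13.7%) met the condition on libraries, of which 400 were not called, and a further 147 genes that met it had too few counts to be tested. Meeting the condition is a description of values that the test also used, and adds no second test.

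Most changes were small. The median log2 fold change was 0.33 in the 800 higher and -0.27 in the 880 lower genes, and 176 higher and 146 lower genes changed at least 1.5-fold. A change of at least 2-fold was found in 48 higher and 44 lower genes. The median control level was 33.8 CPM for the higher and 34.7 CPM for the lower genes, against 18.6 CPM over all genes tested. Protein-coding genes made up 89% of the higher and 95.3% of the lower genes, and 82% of all tested. Their share of the tested genes of a chromosome lay between 8.65% on chromosome 18 and 14.5% on chromosome 8.

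The other 1311 called genes did not meet the condition. In 999 of them (33.4% of those called) siEzh2 lay beyond the 3 scr libraries but not beyond the 3 DMSO libraries, and in 263 (8.79%) the reverse held. Sned1, which encodes an extracellular matrix protein, shows the pattern. It had 14.8, 13.3 and 18.2 CPM in siEzh2 libraries, against 94.3, 84.0 and 91.2 CPM in scr and 19.7, 16.3 and 12.9 CPM in DMSO libraries. The siEzh2 libraries lay among the DMSO libraries and far below scr, and the pooled fall (-1.30 ± 0.11, adjusted p = 1.08e-06) rested on scr (-2.54 against scr and -0.07 against DMSO, adjusted p = 9.26e-10 and 0.794). Cdsn, a gene of the cornified epidermis, averaged 5.01 CPM in siEzh2, 28.5 CPM in scr and 5.11 CPM in DMSO libraries, and its pooled log2 fold change was likewise -1.26 ± 0.12 (adjusted p = 3.35e-07). Exons of Sned1 overlap Mterf4 on the opposite strand and Mir6901 on its own. Abca13, a lipid transporter gene, and Rnase4, a secreted ribonuclease gene that overlaps Ang, were the largest increases among called genes with at least 2 CPM that missed the condition, at 0.98 ± 0.23 (adjusted p = 0.0134) and 0.85 ± 0.13 (adjusted p = 5.77e-05). The Abca13 call was lost without siEzh2 replicate 3, at 0.70 (adjusted p = 0.0750).

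**Figure D2:**
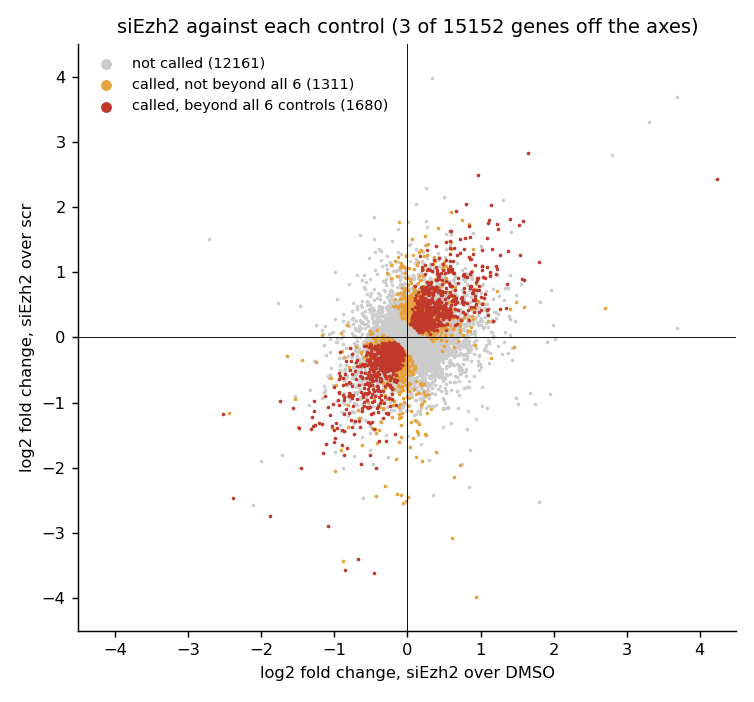
Log2 fold change of siEzh2 over scr (vertical) against that over DMSO (horizontal) for the genes tested, coloured by whether a gene was called in the pooled comparison and lay beyond all 6 controls. Both axes share the siEzh2 libraries, so their agreement is no result. The 1680 genes beyond all 6 controls lie on the same side of both axes, while in 999 of the 1311 others siEzh2 lay beyond the scr libraries alone.

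The condition on libraries did not remove the difference between controls. Among the 1680 genes, 500 (29.8%) were also called between scr and DMSO, near the 25.9% of all genes tested. Of the 1311 called genes that missed the condition, 841 (64.1%) were. The condition uses the range of these same control libraries, so genes with unlike controls miss it more readily. Nothing is drawn from the contrast of 64.1% with 29.8%. The DMSO mean was nearer to siEzh2 than the scr mean in 1060 of the 1680 (63.1%), against 57.2% of all genes tested. Against each control taken alone, 947 (56.4%) were called both times. At the edge of the condition, just inside it, lay Mgat4a, with 145 to 150 CPM in siEzh2 and 112 to 145 CPM in the 6 control libraries, and Il17ra, with 24.9 to 26.2 CPM in siEzh2 and 26.2 to 35.7 CPM in control libraries. Just outside lay Ppp4r3a, with 155 to 158 CPM in siEzh2 and 158 to 184 CPM in control libraries, and Crem, with 10.7 to 12.4 CPM in siEzh2 and 9.27 to 10.7 CPM in control libraries.

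The 12 largest increases among genes with at least 2 CPM ranged between 2.02- and 3.30-fold, and all 12 were called against each control alone. That count was largely set by their choice from these same values and is no separate support. They encode adhesion and matrix proteins (Vwf, Ccn4, Spp1, Postn), a keratin (Krt80), a semaphorin receptor (Plxna4), signalling and cytoskeletal proteins (Fyb, Prkg2, Pak3, Ablim1), a tryptophan-degrading enzyme (Ido2) and a protein of the anoctamin family (Ano3). In 9 of the 12 the 2 controls also differed, and in 10 the DMSO mean was the nearer one. Over all genes tested these shares were 25.9% and 57.2%.

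Vwf encodes von Willebrand factor, the adhesive glycoprotein of endothelium and platelets. It had 10.8, 11.9 and 12.1 CPM in siEzh2 libraries, against 2.2, 2.31 and 1.65 CPM in scr and 7.39, 5.17 and 5.42 CPM in DMSO libraries. The siEzh2 libraries were highest, DMSO intermediate and scr lowest, without overlap between groups. Vwf rose 3.30-fold (1.72 ± 0.10 on the log2 scale, adjusted p = 4.95e-10), by 2.49 against scr and 0.96 against DMSO. The endothelial markers Cdh5, Pecam1, Kdr and Tek did not pass the count filter, and no library held more than 11 counts of any of them.

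Krt80, a type II keratin gene, had 5.63, 5.17 and 4.91 CPM in siEzh2 libraries, against 1.39, 1.57 and 1.49 CPM in scr and 1.94, 2.17 and 1.83 CPM in DMSO libraries. All siEzh2 values were well above every control, and the log2 fold change was 1.61 ± 0.11 (adjusted p = 1.76e-09). Its exons overlap Gm35853 on the opposite strand. Ccn4 encodes a matricellular protein induced by Wnt signalling. It had 76.0, 72.1 and 75.3 CPM in siEzh2 libraries, against 18.7, 18.3 and 17.5 CPM in scr and 35.4, 33.9 and 31.6 CPM in DMSO libraries. The 3 groups formed separate steps, with an increase of 1.59 ± 0.04 over the pooled controls (adjusted p = 6.58e-16), 2.03 over scr and 1.15 over DMSO. The step between the controls, scr minus DMSO, was -0.89 (adjusted p = 4.17e-10).

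In Postn, Pak3 and Fyb the difference between scr and DMSO did not pass the test. Postn, which encodes the matrix protein periostin, had 13.8, 13.8 and 12.7 CPM in siEzh2 libraries, against 6.07, 5.93 and 6.85 CPM in scr and 7.36, 6.43 and 6.19 CPM in DMSO libraries. The control groups overlapped each other and siEzh2 stood above both, at 1.06 ± 0.08 (adjusted p = 9.67e-09). Pak3, a p21-activated kinase gene, had 5.35, 4.94 and 5.30 CPM in siEzh2 libraries, against 2.29, 2.71 and 2.21 CPM in scr and 3.47, 2.14 and 2.65 CPM in DMSO libraries. It rose by 1.01 ± 0.13 (adjusted p = 9.55e-06). Postn is also among 5 fibroblast markers tested. Over all 15152 genes tested, 1510 rose by edgeR (9.97%) and 1621 by DESeq2. Of the 5 markers, 3 rose by edgeR (Postn, Col1a1 and Col1a2) and 2 by DESeq2. Of these, Postn was called against each control, Col1a1 against scr alone and Col1a2 against DMSO alone, while Pdgfra was higher than scr (0.95) and lower than DMSO (-0.69, adjusted p = 1.43e-05 and 0.000398). The other 5 fibroblast markers listed (Col3a1, Dcn, Lum, Thy1 and Col6a3) had no more than 4 counts in any library, and the part of such cells in the result was not tested. Fyb, an adaptor of immune-cell and platelet signalling, had 11.1, 10.6 and 10.3 CPM in siEzh2 libraries, against 3.68, 4.15 and 4.68 CPM in scr and 5.67, 5.12 and 3.71 CPM in DMSO libraries, a rise of 1.26 ± 0.10 (adjusted p = 2.08e-08). Its exons overlap Gm2245 and Gm7666.

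In Ido2 and Plxna4 the scr libraries were the nearer controls. Ido2 had 5.11, 5.30 and 5.46 CPM in siEzh2 libraries, against 2.99, 2.42 and 3.22 CPM in scr and 1.67, 1.89 and 1.69 CPM in DMSO libraries. Its increase was 1.24 ± 0.10 over the pooled controls (adjusted p = 3.20e-08), 0.89 over scr and 1.60 over DMSO. Plxna4, whose exons overlap Plxna4os3 on the opposite strand, had 9.48, 9.83 and 10.9 CPM in siEzh2 libraries, against 5.97, 5.13 and 5.2 CPM in scr and 3.51, 3.7 and 3.08 CPM in DMSO libraries, a rise of 1.23 ± 0.09 (adjusted p = 3.53e-09). The others had the opposite order of controls. Spp1, which encodes osteopontin, a secreted ligand of integrins, rose by 1.10 ± 0.08 (adjusted p = 4.59e-09), by 1.63 against scr and 0.58 against DMSO. Its exons overlap Gm42793 on the same strand. Ablim1, an actin-binding LIM protein gene, rose by 1.03 ± 0.05 (adjusted p = 5.66e-12). Ano3 rose by 1.16 ± 0.06 (adjusted p = 1.17e-10, overlap with Muc15 on the opposite strand), and Prkg2, a cGMP-dependent kinase gene, by 1.12 ± 0.13 (adjusted p = 5.85e-06).

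The 12 largest decreases, Ezh2 included, ranged between 1.98- and 5.38-fold, and DMSO was the nearer control in all 12. Of the 12, 9 also differed between the controls. Over all genes tested, DMSO was nearer in 57.2% and the controls differed in 25.9%. All 12 were called against scr alone and 11 against DMSO alone, counts largely set by their choice from these same values. The exception was Ggt1, which encodes an enzyme that cleaves extracellular glutathione, at -0.39 against DMSO (adjusted p = 0.0913) beside -1.59 against scr (adjusted p = 4.92e-08).

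Cyp26b1, which encodes an enzyme that breaks down retinoic acid, had 15.04, 12.97 and 11.99 CPM in siEzh2 libraries, against 31.5, 34.0 and 34.1 CPM in scr and 28.7, 33.0 and 30.5 CPM in DMSO libraries. The controls overlapped, and siEzh2 lay below all of them, at -1.27 ± 0.08 (adjusted p = 6.66e-10). Pi4k2b, a phosphatidylinositol 4-kinase gene, had 50.6, 51.2 and 47.5 CPM in siEzh2 libraries, against 101, 104 and 101 CPM in scr and 99.1, 94.7 and 90.5 CPM in DMSO libraries. It fell by 0.98 ± 0.05 on the log2 scale (adjusted p = 1.84e-11), with almost the same fall against scr (-1.04) and DMSO (-0.93). Ezh2, Cyp26b1 and Pi4k2b were the 3 of the 12 in which scr and DMSO were not called as different.

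Notch1, the receptor gene of the Notch pathway, had 23.2, 21.5 and 27.2 CPM in siEzh2 libraries, against 95.8, 88.7 and 92.5 CPM in scr and 42.1, 36.5 and 33.2 CPM in DMSO libraries. The siEzh2 libraries were lowest and scr stood well above DMSO. Notch1 fell by 1.29 ± 0.09 (adjusted p = 2.47e-08), by 1.94 against scr and by 0.63 against DMSO (adjusted p = 0.000452). Its exons overlap 0610009E02Rik and Gm13568 on the opposite strand. Lrrc75b, a leucine-rich repeat gene, had 1.68, 1.75 and 1.99 CPM in siEzh2 libraries, against 12.2, 13.6 and 14.7 CPM in scr and 3.78, 4.15 and 3.67 CPM in DMSO libraries. Its fall of 1.99 ± 0.11 (adjusted p = 1.77e-10) had the same order of groups, with scr above DMSO by 1.81 (adjusted p = 1.58e-10). Prex1, an activator of Rac GTPases, had 1.28, 1.49 and 1.42 CPM in siEzh2 libraries, against 4.34, 4.96 and 5.46 CPM in scr and 2.63, 2.84 and 2.25 CPM in DMSO libraries, a log2 fold change of -1.33 ± 0.13 (adjusted p = 4.85e-07).

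The other decreases were smaller against DMSO than against scr. Mmp15, a membrane-type matrix metalloproteinase gene, had a log2 fold change of -1.21 ± 0.08 (adjusted p = 1.84e-09), with -1.42 against scr and -1.01 against DMSO. Hr, which encodes the nuclear corepressor hairless, had -1.26 ± 0.08 (adjusted p = 1.52e-09), with -1.70 against scr and -0.82 against DMSO. Zfp469, annotated as a lincRNA in GENCODE M21 (-1.38 ± 0.15), Arhgef19, a guanine nucleotide exchange factor gene (-1.27 ± 0.13), and Aif1l, an actin-binding protein gene (-1.07 ± 0.08, overlap with Gm13442 on the opposite strand), had adjusted p-values of 1.76e-06, 1.05e-06 and 9.98e-09.

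**Figure D3:**
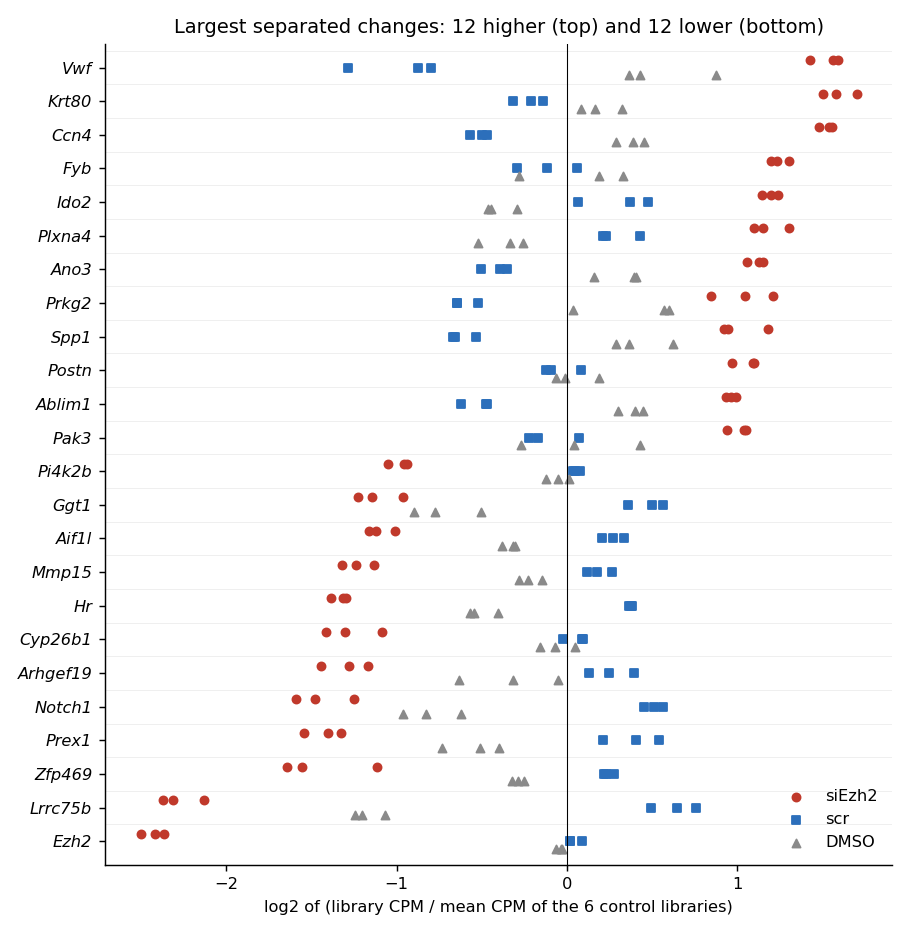
Each library's CPM over the mean of the 6 control libraries, as log2, for the 12 largest increases (top) and the 12 largest decreases (bottom), with 1 point per library and groups by colour and marker. The siEzh2 points lie outside all control points in every gene, by the choice of genes. The scr mean lies farther from siEzh2 than the DMSO mean in 10 of the 12 increases and in all 12 decreases.

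Promoter sequences are shown for the 2 largest increases and the 2 largest decreases that have an entry in the RefSeq promoter table of GRCm38.p6. They show the sequence at a listed start of the gene. Each runs 250 bases before to 50 bases after the first listed start, 5′ to 3′ on the strand of the gene, with every CG in capitals. Fyb lies at chr15:6579597-6579896 on the plus strand, and Ano3 (chr2:110950195-110950494), Prex1 (chr2:166713783-166714082) and Notch1 (chr2:26503773-26504072) lie on the minus strand.
Fyb: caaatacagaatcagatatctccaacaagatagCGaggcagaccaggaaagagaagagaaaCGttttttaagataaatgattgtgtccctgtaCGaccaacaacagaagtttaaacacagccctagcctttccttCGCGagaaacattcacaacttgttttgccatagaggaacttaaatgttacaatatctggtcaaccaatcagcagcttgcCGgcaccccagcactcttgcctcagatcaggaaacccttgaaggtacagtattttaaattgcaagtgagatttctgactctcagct
Ano3: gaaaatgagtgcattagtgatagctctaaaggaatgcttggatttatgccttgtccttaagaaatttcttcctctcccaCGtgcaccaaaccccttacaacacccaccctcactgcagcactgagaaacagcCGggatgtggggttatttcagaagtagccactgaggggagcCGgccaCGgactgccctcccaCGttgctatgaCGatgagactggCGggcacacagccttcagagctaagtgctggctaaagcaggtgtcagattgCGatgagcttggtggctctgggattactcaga
Prex1: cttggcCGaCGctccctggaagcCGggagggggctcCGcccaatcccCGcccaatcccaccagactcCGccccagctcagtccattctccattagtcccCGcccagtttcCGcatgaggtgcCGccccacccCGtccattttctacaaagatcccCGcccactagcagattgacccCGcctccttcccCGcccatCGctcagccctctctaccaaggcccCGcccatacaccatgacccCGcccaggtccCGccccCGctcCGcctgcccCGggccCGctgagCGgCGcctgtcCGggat
Notch1: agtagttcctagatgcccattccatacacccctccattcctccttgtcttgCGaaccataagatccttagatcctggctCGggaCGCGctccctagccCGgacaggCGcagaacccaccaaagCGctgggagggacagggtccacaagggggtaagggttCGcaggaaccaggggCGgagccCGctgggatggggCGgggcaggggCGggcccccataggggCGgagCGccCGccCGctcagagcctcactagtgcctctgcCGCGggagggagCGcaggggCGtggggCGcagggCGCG
The CG dinucleotide, which reads the same on both strands, occurred 6 times in the window of Fyb and 8 times in that of Ano3, 24 times in Prex1 and 23 times in Notch1. Over all 27025 windows of the table, which hold genes expressed here or not, the median was 7, and 94.2% held at least 1. No comparison of higher with lower genes is drawn from 4 windows. The listed starts of Fyb, Ano3 and Notch1 lie inside the gene bodies of GENCODE M21, so other start sites exist. The same measure over the 800 higher and 880 lower genes is void, because 70.4% and 76.0% of them had an entry.

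The other PRC2 subunits changed less than Ezh2. Of the 12 tested, Ezh2 included, 5 fell and 1 rose, against 9.77% and 9.97% of all genes tested. The 2 beyond all 6 controls were Ezh2 and Epop. The median of the list was -0.13 on the log2 scale, against -0.01 over all genes tested. Epop, an elongin-binding accessory subunit, had 5.29, 4.23 and 5.0 CPM in siEzh2 libraries, against 7.77, 7.44 and 7.05 CPM in scr and 7.65, 8.88 and 10.03 CPM in DMSO libraries. It fell by 0.75 ± 0.12 (adjusted p = 0.000139), and was called against scr (-0.62) and DMSO (-0.88). The accessory subunits Mtf2 (-0.27 ± 0.05) and Phf19 (-0.25 ± 0.06) and the histone-binding subunit Rbbp4 (-0.16 ± 0.05) fell against the pooled controls. None of these was called against DMSO alone (-0.15, 0.07 and -0.12). Against DMSO alone 4 of the 12 fell, Ezh2 and Epop among them, and 0 rose, where 7.76% and 6.41% of all genes tested did. Against scr alone 6 fell and 1 rose, where 12.9% and 13.2% did. Jarid2, an accessory subunit that helps recruit the complex, rose by 0.14 ± 0.04 (adjusted p = 0.0381), a call lost without any 1 of the 3 siEzh2 libraries (adjusted p = 0.0743, 0.0812 and 0.118), without scr replicates 1 or 2 (0.0583 and 0.0746), without DMSO replicate 3 (0.0545), with no count filter (0.135) or with the 9 libraries only (0.0507). The core subunits Suz12 (-0.07 ± 0.04, adjusted p = 0.298) and Eed (-0.05 ± 0.05, adjusted p = 0.518) did not pass the test.

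Of 20 PRC1 subunits, 3 fell and 2 rose, a share near the 19.7% called over all genes tested. Cbx2 and Cbx7, readers of the PRC2 mark, lay below all 6 controls. Cbx2 had 20.6, 18.4 and 20.4 CPM in siEzh2 libraries, against 23.5, 23.8 and 25.1 CPM in scr and 23.5, 21.9 and 22.2 CPM in DMSO libraries. It fell by 0.24 ± 0.06 and Cbx7 by 0.23 ± 0.06 (adjusted p = 0.00464 and 0.00593). Bmi1, a core PRC1 subunit, rose by 0.22 ± 0.04 (adjusted p = 0.000803) and lay above all controls. None of the 4 tested H3K27 demethylase and acetyltransferase genes was called by edgeR or DESeq2, and none had an unadjusted p under 0.05 in edgeR.

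Developmental regulators, the transcription factor genes that PRC2 binds in many cell types, did not rise as a group among those tested. Of 86 listed, 35 were measured well enough to test, so the list says nothing of the others. Of the 35, 3 rose and 3 fell, shares near the 9.97% and 9.77% over all genes tested. The list median was -0.04. Hoxa7 had 17.9, 22.5 and 20.8 CPM in siEzh2 libraries, against 15.6, 17.8 and 15.4 CPM in scr and 14.8, 12.3 and 12.9 CPM in DMSO libraries. It rose by 0.47 ± 0.08 (adjusted p = 0.000322) and lay just above all controls. Its neighbour in the cluster Hoxa9 fell by 0.40 ± 0.10 (adjusted p = 0.00686), with 3.61, 3.67 and 3.01 CPM in siEzh2 libraries, against 4.2, 4.96 and 4.74 CPM in scr and 4.49, 4.31 and 4.45 CPM in DMSO libraries. Gata2, a factor of blood and neural development, fell by 0.79 ± 0.12 (adjusted p = 9.79e-05), to 1.28, 1.32 and 1.26 CPM in siEzh2 libraries, against 2.16, 1.89 and 1.98 CPM in scr and 2.32, 2.63 and 2.45 CPM in DMSO libraries. Irx5 rose by 0.38 ± 0.07 beyond all controls. Sox9 and Hoxb9 were called (0.39 ± 0.05 and -0.65 ± 0.11) but overlapped DMSO, with 0.09 and -0.11 against DMSO alone (adjusted p = 0.342 and 0.623).

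Pigmentation and melanocyte lineage genes were higher. Of 36 tested, 19 rose and 2 fell against the pooled controls, where 9.97% of all genes tested rose and 9.77% fell. Beyond all 6 control libraries lay 11 and 1 of them, against 5.28% and 5.81% of all genes tested. The list median was 0.16, against -0.01 over all genes tested. For the list it was 0.27 against scr and 0.06 against DMSO. Against scr alone 23 rose and 1 fell, where 13.2% of all genes tested were higher and 12.9% lower. Against DMSO alone 8 rose and 5 fell, where 6.41% were higher and 7.76% lower. Between the controls, 3 of these genes were higher and 21 lower in scr than in DMSO, where 12.2% of all genes tested were higher and 13.6% lower. Mitf, the master transcription factor of the lineage, had 895, 908 and 883 CPM in siEzh2 libraries, against 605, 663 and 654 CPM in scr and 842, 779 and 754 CPM in DMSO libraries. It rose by 0.33 ± 0.05 (adjusted p = 5.97e-05), by 0.48 against scr and 0.18 against DMSO (adjusted p = 0.0412). Met, the hepatocyte growth factor receptor gene, had 312, 303 and 310 CPM in siEzh2 libraries, against 157, 166 and 162 CPM in scr and 187, 174 and 165 CPM in DMSO libraries. Its rise of 0.87 ± 0.04 (adjusted p = 1.78e-11) was of like size against scr (0.93) and DMSO (0.82).

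Oca2, which encodes a melanosome membrane protein, rose by 0.80 ± 0.06, and the melanocyte channel gene Trpm1 by 0.68 ± 0.06. Trpm1 had 79.9, 84.6 and 79.2 CPM in siEzh2 libraries, against 40.4, 41.1 and 38.4 CPM in scr and 67.6, 59.1 and 66.5 CPM in DMSO libraries. Gpnmb, which encodes a melanosomal glycoprotein, rose by 0.58 ± 0.08, the melanocortin receptor gene Mc1r by 0.43 ± 0.04 and Tyr, the rate-limiting enzyme of melanin synthesis, by 0.34 ± 0.05. Each of these 5 was also called against DMSO alone. Others depended on the control. Mlph, a melanosome transport gene, had 425, 391 and 410 CPM in siEzh2 libraries, against 186, 192 and 180 CPM in scr and 454, 441 and 413 CPM in DMSO libraries, so that siEzh2 lay far above scr and among DMSO. Pmel, the melanosome fibril protein, was higher than scr (0.33, adjusted p = 0.000549) and lower than DMSO (-0.19, adjusted p = 0.0441), and Mlana likewise (0.26 and -0.27, adjusted p = 0.0053 and 0.0068). The receptor gene Kit fell by 0.25 ± 0.04 and lay below all 6 controls, but was not called against scr alone (-0.11, adjusted p = 0.108).

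DNA replication genes were lower against the pooled controls. Of 44 S phase genes tested, 26 fell, 11 of them below all 6 controls, against 9.77% and 5.81% of all genes tested. The list median was -0.17, with -0.21 against scr and -0.11 against DMSO. Against scr alone 25 fell and against DMSO alone 11, where 12.9% and 7.76% of all genes tested fell. Between the controls, 14 of these genes were higher and 1 lower in scr than in DMSO, where 12.2% of all genes tested were higher and 13.6% lower. The 26 were 13 without siEzh2 replicate 2, 11 without siEzh2 replicate 3 and 16 with the 9 libraries only. Cdc45, a part of the replicative helicase, had 37.1, 36.1 and 37.7 CPM in siEzh2 libraries, against 54.7, 56.2 and 52.4 CPM in scr and 42.2, 42.4 and 42.3 CPM in DMSO libraries. It fell by 0.38 ± 0.05 (adjusted p = 7.91e-06), and its exons overlap Ufd1 on the opposite strand. Rpa2, which coats single-stranded DNA, fell by 0.30 ± 0.07, and the sliding clamp gene Pcna by 0.19 ± 0.05. Mcm5, a helicase subunit, fell by 0.21 ± 0.04 but had 124, 137 and 129 CPM in siEzh2 libraries, against 163, 172 and 169 CPM in scr and 128, 136 and 142 CPM in DMSO libraries, and was not called against DMSO (adjusted p = 0.470).

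Among 51 genes of the G2 and M phases, 11 fell, 6 of them below all 6 controls, against 9.77% and 5.81% of all genes tested. The list median was -0.11. Here the order of controls was the reverse, with medians of -0.06 against scr and -0.12 against DMSO. Against scr alone 8 fell and 1 rose, and against DMSO alone 16 fell, where 12.9% and 7.76% of all genes tested fell. The 11 were 5 without siEzh2 replicate 2, 6 without siEzh2 replicate 3 and 7 without DMSO replicate 2, without scr replicate 3 or with the 9 libraries only. Gtse1, a mitotic microtubule regulator, had 35.2, 34.4 and 34.5 CPM in siEzh2 libraries, against 41.8, 39.8 and 42.6 CPM in scr and 40.0, 42.1 and 42.4 CPM in DMSO libraries. It fell by 0.26 ± 0.04 (adjusted p = 0.000175), equally against both controls (-0.26 each). Ccnb1, the mitotic cyclin B1 gene, fell by 0.20 ± 0.04 (adjusted p = 0.00168). In bulk libraries, fewer cells of a type or phase and less RNA per cell cannot be told apart.

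Among 11 genes of CDK inhibitors and D-type cyclins, 4 fell and 3 rose, with 2 that fell without siEzh2 replicate 1 and 1 that rose without siEzh2 replicate 2. Against scr alone 5 fell and 2 rose (12.9% and 13.2% of all genes tested), with a list median of -0.16. Against DMSO alone 1 fell and 3 rose (7.76% and 6.41% of all), with a median of 0.10. Between the controls, 6 were higher and 0 lower in scr, where 12.2% and 13.6% of all genes tested were. Cdk6, the kinase partner of D-type cyclins, had 7.46, 7.70 and 7.17 CPM in siEzh2 libraries, against 14.1, 13.3 and 13.02 CPM in scr and 12.05, 11.3 and 10.1 CPM in DMSO libraries, a fall of 0.71 ± 0.09 (adjusted p = 4.99e-06). Its exons overlap Gm17590 on the opposite strand. The cyclin gene Ccnd2 (0.15 ± 0.04) and the inhibitor gene Cdkn2c (0.19 ± 0.04) rose beyond all controls. Ccnd3 fell by 0.24 ± 0.05 against the pooled controls, with -0.53 against scr and 0.05 against DMSO. The p53 target Cdkn1a, an inhibitor of cell cycle kinases, had a difference of -0.02 ± 0.06 (adjusted p = 0.885). Of 28 p53 targets, 4 fell, and by both edgeR and DESeq2 0 rose, with 1 higher at an unadjusted p under 0.05 in edgeR. Without siEzh2 replicate 1, or with the 9 libraries only, 2 fell. Over all genes tested, 9.97% rose and 9.77% fell against the pooled controls.

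Interferon-stimulated genes were higher against the pooled controls, and this rested on scr. Of 37 tested, 10 rose and 1 fell, with a list median of 0.16. Above all 6 controls lay 3 of the 37, against 5.28% of all genes tested. Without siEzh2 replicate 3, 6 of the 37 rose. The median was 0.39 against scr, where 25 rose, and -0.06 against DMSO, where 1 rose and 2 fell. Between the controls, 26 were lower in scr than in DMSO, where 13.6% of all genes tested were lower. Over all genes tested, 9.97% rose and 9.77% fell against the pooled controls. Against scr alone 13.2% of all genes tested rose, and against DMSO alone 6.41% rose and 7.76% fell. Gbp2, a guanylate-binding protein gene, had 14.1, 13.9 and 13.8 CPM in siEzh2 libraries, against 5.76, 6.53 and 5.30 CPM in scr and 13.3, 12.4 and 11.3 CPM in DMSO libraries. The siEzh2 libraries lay just above DMSO and far above scr, so the pooled rise of 0.71 ± 0.07 (adjusted p = 9.91e-07) was 1.24 against scr and 0.18 against DMSO (adjusted p = 0.173). Its exons overlap Mir6381 on the opposite strand. Ifih1, a sensor of double-stranded RNA, was the gene called higher against both (0.59 and 0.19, adjusted p = 6.80e-07 and 0.0499). Among 22 RNA sensing and RNA interference genes 5 rose (3 without siEzh2 replicate 1 or 3) and 1 fell, and Tlr3, an endosomal sensor of double-stranded RNA, rose by 0.29 ± 0.07 beyond all controls (adjusted p = 0.0045, overlap with Gm45542 on the opposite strand). Of 19 MHC class I presentation genes, 2 rose (4 without DMSO replicate 3, 1 without any 1 of the siEzh2 libraries), a share near the 9.97% called higher over all genes tested, with a median of 0.24 against scr and -0.13 against DMSO. H2-K1, a class I heavy chain gene, was 0.39 higher than scr and differed from DMSO by -0.003, and its pooled call (0.19 ± 0.05, adjusted p = 0.0158) was lost without siEzh2 replicate 1 (adjusted p = 0.116) or 3 (0.0525).

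Counts of metabolic and stress genes called also differed between the controls. Over all genes tested, 9.97% rose and 9.77% fell against the pooled controls. The shares were 13.2% and 12.9% against scr alone, and 6.41% and 7.76% against DMSO alone. Between the controls, 12.2% of all genes tested were higher and 13.6% lower in scr. Of 25 cholesterol synthesis genes, 2 rose and 2 fell against the pooled controls, and each of these 4 overlapped 1 of the controls. With DESeq2 or its size factors 4 rose, and 5 rose without DMSO replicate 3, 4 without siEzh2 replicate 3, and 1 without DMSO replicate 1, scr replicate 1, scr replicate 2 or siEzh2 replicate 1. None fell without siEzh2 replicate 2 or 3 or with the 9 libraries only. Against scr alone 21 were higher, and against DMSO alone 12 were lower, with medians of 0.36 and -0.24. Between the controls, 23 were lower in scr. Sqle, the squalene epoxidase gene, had 198, 203 and 190 CPM in siEzh2 libraries, against 148, 158 and 152 CPM in scr and 220, 232 and 234 CPM in DMSO libraries, and the siEzh2 libraries lay between both controls (0.08 ± 0.05, adjusted p = 0.249). Of 34 targets of the integrated stress response factor ATF4, 9 fell and 1 rose, with medians of -0.24 against scr and 0.05 against DMSO. The 9 were 4 without siEzh2 replicate 1 or 3 and 15 with no count filter. Between the controls, 22 were higher and 1 lower in scr. Gpt2, an aminotransferase gene, fell beyond all controls (-0.34 ± 0.05), with 43.1, 43.7 and 42.6 CPM in siEzh2 libraries, against 53.6, 50.4 and 50.4 CPM in scr and 61.0, 51.9 and 60.9 CPM in DMSO libraries. Of 41 lysosome and vacuolar ATPase genes, 16 rose and 2 fell, with a list median of 0.11. Of these, 5 and 2 lay beyond all controls, against 5.28% and 5.81% of all genes tested. Without siEzh2 replicate 2, 10 of the 41 rose. Against scr alone 18 rose and 2 fell, and against DMSO alone 4 rose and 2 fell, with medians of 0.14 and 0.04. Between the controls, 1 was higher and 15 were lower in scr. Glb1, the beta-galactosidase gene, fell by 0.23 ± 0.05 and overlaps Tmppe on its own strand.

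**Figure D4:**
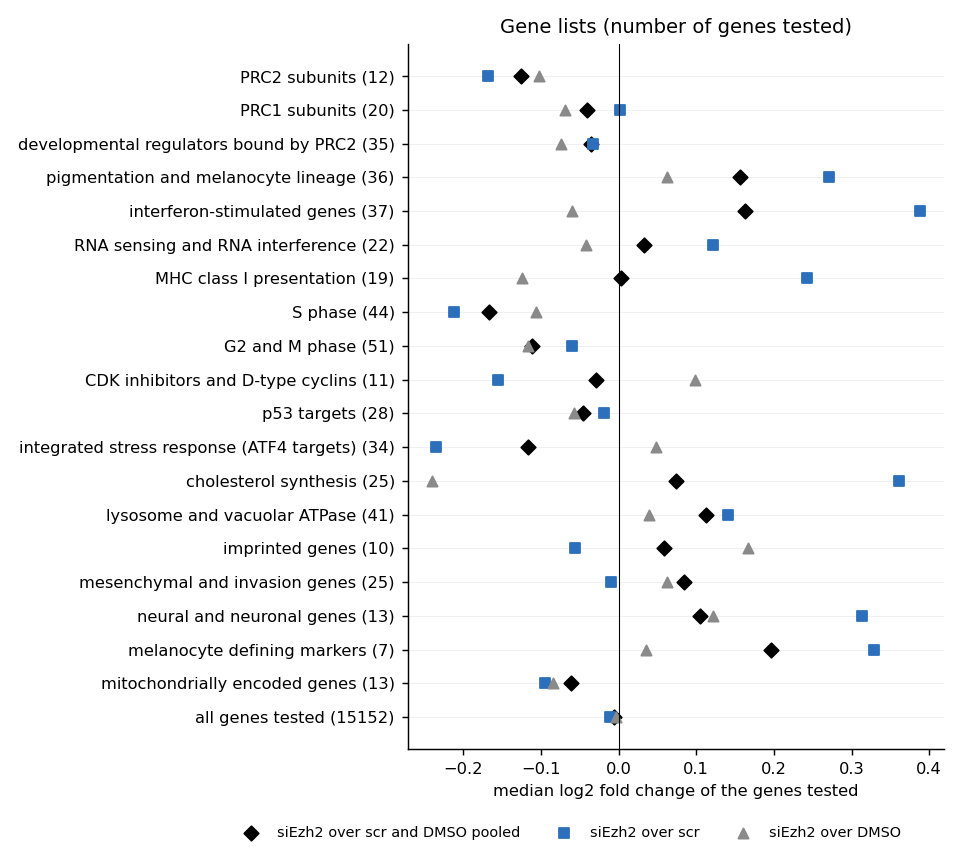
Median log2 fold change of the tested genes of each list for siEzh2 over both controls pooled, over scr and over DMSO, with the number of genes tested beside the name. The 3 comparisons share the siEzh2 libraries. Cholesterol synthesis lies at 0.36 against scr and -0.24 against DMSO, while S phase lies below 0 in all 3.

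Adhesion, matrix and invasion genes changed in both directions and often beyond all controls. Of 25 mesenchymal and invasion genes, 11 rose and 5 fell, against 9.97% and 9.77% of all genes tested. Beyond all 6 controls lay 7 and 4 of them, against 5.28% and 5.81% of all genes tested. Itgb3, an integrin subunit gene, had 62.7, 67.4 and 71.9 CPM in siEzh2 libraries, against 41.2, 43.7 and 44.1 CPM in scr and 45.1, 44.6 and 44.1 CPM in DMSO libraries. It rose by 0.62 ± 0.04 (adjusted p = 5.99e-09), with 0.65 against scr and 0.60 against DMSO. Loxl2, which cross-links collagen, rose by 0.65 ± 0.08, to 69.0, 81.6 and 77.2 CPM in siEzh2 libraries, against 56.6, 58.6 and 59.4 CPM in scr and 41.2, 38.3 and 41.5 CPM in DMSO libraries. Both the epithelial cadherin gene Cdh1 (0.59 ± 0.10) and the neural cadherin gene Cdh2 (0.26 ± 0.05) rose. Axl, a receptor tyrosine kinase gene of invasive melanoma states, fell by 0.89 ± 0.07 (adjusted p = 8.75e-09), to 11.9, 11.2 and 13.9 CPM in siEzh2 libraries, against 31.2, 28.9 and 30.8 CPM in scr and 17.3, 17.6 and 16.96 CPM in DMSO libraries. The growth factor gene Tgfb1 (-0.37 ± 0.05), the urokinase receptor gene Plaur (-0.48 ± 0.11) and Thbs1, a matrix glycoprotein gene (-0.59 ± 0.12), also fell beyond all controls.

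Of 13 neural and neuronal genes, 5 rose and 2 fell, against 9.97% and 9.77% of all genes tested. Beyond all controls lay 4 and 2 of them, against 5.28% and 5.81% of all genes tested. L1cam, a neural adhesion gene, had 151, 145 and 153 CPM in siEzh2 libraries, against 69.7, 72.8 and 68.5 CPM in scr and 103, 104 and 93.7 CPM in DMSO libraries. Its rise of 0.83 ± 0.05 (adjusted p = 1.58e-10) was accompanied by those of Ncam1 (0.42 ± 0.05) and Nrcam (0.32 ± 0.05). L1cam overlaps Arhgap4 on its own strand, and Ncam1 overlaps Gm11149 on the opposite strand. Nes, a neural progenitor filament gene, fell by 0.35 ± 0.05, and the neural crest receptor gene Ngfr by 0.79 ± 0.20. Against scr alone 5 of the 13 rose and 3 fell, where 13.2% and 12.9% of all genes tested did. Against DMSO alone 4 rose and 1 fell, where 6.41% and 7.76% did. The 1 was Nes (-0.31, adjusted p = 0.0013), so Ngfr was not called lower than DMSO. Without siEzh2 replicate 2, 1 of the 13 fell against the pooled controls. Ngfr had 0.856, 0.684 and 0.799 CPM in siEzh2 libraries, against 1.56, 2.08 and 1.90 CPM in scr and 1.08, 0.908 and 0.970 CPM in DMSO libraries.

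Of 23 imprinted genes 10 were tested, of which 4 rose and 3 fell, against 9.97% and 9.77% of all genes tested. Without siEzh2 replicate 1, 1 fell. Mest had 10.2, 9.07 and 8.82 CPM in siEzh2 libraries, against 14.9, 18.5 and 19.4 CPM in scr and 15.5, 18.5 and 16.9 CPM in DMSO libraries, a fall of 0.89 ± 0.08 (adjusted p = 2.81e-07), and overlaps Copg2 on the opposite strand. Phlda2 fell by 1.21 ± 0.33 (adjusted p = 0.0128) at levels of 0.122 to 0.274 CPM in siEzh2, 0.360 to 0.424 CPM in scr and 0.311 to 0.539 CPM in DMSO libraries. Peg10, a retrotransposon-derived gene, rose by 0.40 ± 0.08 beyond all controls (adjusted p = 0.00177). Cdkn1c, an imprinted cell cycle inhibitor gene, fell by 0.75 ± 0.23 against the pooled controls (adjusted p = 0.0253), but had 0.581, 0.785 and 0.343 CPM in siEzh2 libraries, against 2.12, 2.75 and 2.63 CPM in scr and 0.335, 0.349 and 0.385 CPM in DMSO libraries.

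**Figure D5:**
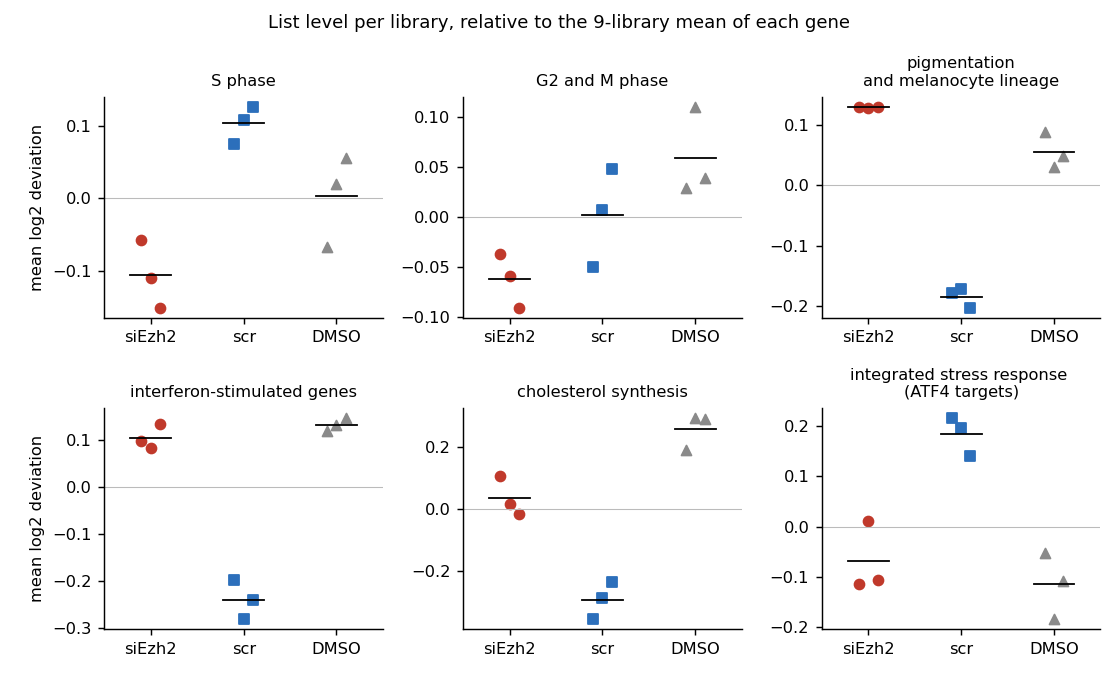
Mean log2 deviation of the tested genes of selected lists from each gene's mean over the 9 libraries, with 1 point per library in siEzh2, scr and DMSO. For interferon-stimulated genes siEzh2 (0.0826 to 0.136) and DMSO (0.119 to 0.147) lie together above scr (-0.28 to -0.196). For S phase genes siEzh2 (-0.15 to -0.0575) reaches DMSO (-0.067 to 0.0557) and lies below scr (0.0747 to 0.126).

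For a few of these genes, chosen after their values were seen, the levels under the 2 compounds, which share the DMSO libraries as control, are given beside those of siEzh2. Ano3 averaged 92.0 CPM in siEzh2, 110 CPM in GSK126 and 61.8 CPM in DZNep libraries, and 31.9 CPM in scr and 53.2 CPM in DMSO libraries. Mmp15 averaged 4.77 CPM in siEzh2, 5.42 CPM in GSK126 and 2.51 CPM in DZNep libraries, and 12.7 CPM in scr and 9.62 CPM in DMSO libraries. Mest averaged 9.35 CPM in siEzh2, 46.3 CPM in GSK126 and 24.2 CPM in DZNep libraries, and 17.6 CPM in scr and 16.96 CPM in DMSO libraries. Mmp15 was lowest with DZNep, and Mest was lowest with siEzh2 and highest with GSK126. Spp1 (0.69), Prkg2 (0.91), Fyb (0.63), Plxna4 (0.56), Ido2 (0.51) and Ablim1 (0.20) were also called higher with GSK126 than with DMSO. Cyp26b1, lower in siEzh2, was called higher with GSK126 (0.33, adjusted p = 0.00831). For other large changes no difference between GSK126 and DMSO was called, such as Ccn4 (-0.07, adjusted p = 0.383), Krt80 (0.20, adjusted p = 0.356), Prex1 (-0.07, adjusted p = 0.784) and Pi4k2b (-0.07, adjusted p = 0.408). With DZNep, Ccn4 and Krt80 were called higher than with DMSO (3.58 and 2.39), Pi4k2b was called lower (-0.15) and Prex1 was not called (0.24). The differences between siEzh2 and the compounds were not tested.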

How the data were processed

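The authors deposited 1 table of raw counts of reads for each gene. Per the submitters' processing notes, STAR was the aligner, GRCm38 the build and featureCounts the counter. The sources used here do not give versions, annotation or strand setting, so overlapping and antisense genes are marked as uncertain. Each column was matched to its library by name. Symbols and exon overlaps came from GENCODE M21 (45229 of 46078 identifiers matched).

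All 15 libraries were fitted in edgeR 4.0.16 (R 4.3.3) with TMM scaling, the low-count filter by group, robust quasi-likelihood tests and no covariate. The contrast was siEzh2 minus the mean of scr and DMSO. The spread came from all 5 groups (common dispersion 0.00409, a coefficient of variation of 6.4%). A call needed an adjusted p (Benjamini-Hochberg) under 0.05 over the 15152 genes tested, and all adjusted p-values come from this fit unless another is named. Fold changes are log2 values ± SE. CPM are on TMM-scaled totals, and 1 count was worth 0.0154 to 0.0306 CPM. Replicates differed by more than sampling noise (chi-square per degree of freedom 8.76 to 39.2), so every library was counted.

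The genes beyond all 6 controls, the gene lists and the naming rule were chosen with earlier results of these data known. Named were Ezh2, Ezh1, the 12 largest changes each way with at least 2 CPM and a proper symbol, the 2 smallest p-values of each list with the first in the other direction, and genes at the edge of the condition. Other list members were named after their values were seen. Alternatives were each control alone, size factors of DESeq2, library totals alone, no count filter, 9 libraries only, DESeq2 1.42.0, a replicate block and leaving out each library. A few genes that the rule names are not reported here.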

Additional observations from a re-analysis of the deposited data

Results flagged for a closer look

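In 22 genes called in the pooled comparison, the siEzh2 libraries lay beyond all 3 libraries of both controls but in opposite directions, so they lay between scr and DMSO. In all 22, scr and DMSO also differed by the edgeR test, against 25.9% of all genes tested. Lying between the controls requires the controls to be apart. The count was therefore largely set by the choice of genes and is no separate result. Unc5b, a netrin receptor gene, had 7.95, 9.10 and 9.16 CPM in siEzh2 libraries, against 18.8, 18.7 and 18.6 CPM in scr and 7.82, 6.92 and 6.35 CPM in DMSO libraries. Its pooled log2 fold change was -0.38 (adjusted p = 0.00154), with -1.09 against scr and 0.33 against DMSO (adjusted p = 1.13e-08 and 0.0229). Cacnb3, a calcium channel subunit gene, averaged 14.4 CPM in siEzh2, 7.24 CPM in scr and 17.4 CPM in DMSO libraries, with 0.99 against scr and -0.28 against DMSO (adjusted p = 9.07e-09 and 0.0141). For these genes the sign of the pooled value follows the control that lies farther away on the log scale.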

How the results depend on the processing

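The count of 2991 called genes was 2870 to 3185 with other scaling, no count filter, DESeq2 or the replicate block, and 2416 with the 9 libraries only. It was 3953 with scr alone and 2148 with DMSO alone as the control. The 1680 genes called and beyond all controls were 1529 to 1681 under the same alternatives, 2068 with DMSO alone and 3879 with scr alone, where the condition covers 3 control libraries in place of 6. Leaving out 1 library gave 2118 to 3207 called genes, 1602 to 2035 beyond all controls, and 3030 to 3912 between scr and DMSO. Without a siEzh2 library, 76.6 to 81.7% of the 1680 were kept. With the replicate block 3001 genes were called and 1674 were beyond all controls. Same-numbered libraries did not deviate together (correlation -0.21 to 0.116 of deviations from group means), so the numbers were not taken as pairs. Signs turned for Pcgf3 (-0.0878), H2-K1 (-0.00293), Ccnd3 (0.0461) and Hsd17b7 (-0.14) with DMSO alone, for Insig1 (0.12) and Col1a2 (-0.14) with scr alone, and for Kdm6a without DMSO replicate 3 (-0.00085 to 0.0933 over the libraries left out, never called). Of 408 alternative values of the 24 largest changes, 407 kept direction and call, the exception being Ggt1 with DMSO alone. The 24 were picked from these same data as the largest called changes beyond all 6 controls. That count was therefore largely set by the choice and is no separate support. The cause of these shifts was not tested. At 0.0154 to 0.0306 CPM a count, levels such as those of Phlda2 (0.122 CPM in siEzh2 replicate 1) rest on few counts.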

Other observations

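Col1a2, a fibrillar collagen gene, rose against the pooled controls by 0.66 ± 0.08 (adjusted p = 1.19e-05) but had 8.13, 9.76 and 8.29 CPM in siEzh2 libraries, against 10.3, 9.36 and 9.21 CPM in scr and 3.51, 2.84 and 3.19 CPM in DMSO libraries. Here the 2 siRNA groups overlapped and DMSO stood apart, the reverse of the interferon-stimulated genes. Nupr1, a stress-induced chromatin protein gene, had 80.2, 91.1 and 74.9 CPM in siEzh2 libraries, against 77.0, 76.6 and 74.8 CPM in scr and 53.8, 46.7 and 48.6 CPM in DMSO libraries. It rose by 0.42 ± 0.06 against the pooled controls and by 0.72 against DMSO, while the difference of 0.11 from scr did not pass the test (adjusted p = 0.292).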
